A study of Mus musculus with 300 samples.

Results

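Livers of (MRL/MpJ x SM/J) F1 hybrid mice were set against livers of SM/J, 1 of the 2 inbred parent strains (called SM here, and MRL/MpJ called MRL), to ask which SM transcript levels the hybrid keeps and which it leaves. The comparison took 12 of the 300 arrays of the series, chosen by sample title: 6 F1 livers (3 coded F and 3 coded M) and 6 SM livers (3 coded F and 3 coded M). The other parent, MRL, gave 6 arrays (3 coded F and 3 coded M) that were used to say how far the parents lie apart. All animals were 13 weeks old, untreated, on chow, kept alone for the last 3 days and without food for 4 hours before collection. The F1 animals had SM fathers. No cross in the other direction was used here, so that strain of the father and hybrid genotype cannot be told apart.

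In an F1 hybrid of inbred strains every autosomal gene carries 1 allele of each parent, and all hybrids of a sex are genetically alike. A difference that lies in the gene's own regulatory sequence usually puts the hybrid between its parents, since each allele is transcribed at its own rate. A hybrid at the level of 1 parent is what geneticists call dominance of that parent's allele, and a hybrid beyond both parents is called overdominant or transgressive. In mouse liver many transcripts also differ between females and males, mostly through the sex-specific pattern of growth hormone release.

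The measurements are log2 expression values per Ensembl transcript from Affymetrix Mouse Gene 1.0 ST arrays, 1 animal per array. They ran from 4.77 to 13.55 over the 12 arrays and covered 34406 transcripts, of which 0 could be paired with a gene name, so that transcripts are given by identifier and the liver label was not checked against marker genes. A strain difference in sequence under a probe also changes its value, and its part in the results was not tested. In whole liver, fewer cells of a type and less RNA per cell cannot be told apart. Over the transcripts of 1 array the SD was 1.31 in each of the 3 F1 F-coded livers and 1.25 to 1.30 for the SM F-coded ones, and it was 1.22 to 1.28 for F1 and 1.22 to 1.29 for SM M-coded ones. The 12 arrays were run in 9 batches, and only 2 batches held both F1 and SM, batch 2 with F1 F-coded replicate 1150 and SM M-coded replicate 7, and batch 3 with F1 M-coded replicate 1151 and SM F-coded replicate 3.

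The library labelled F1 male replicate 1146 did not have the profile of the other M-coded livers. Among 116 transcripts whose F and M-coded parental animals were apart by over 1 log2 unit without overlap, this library lay on the female side in 111. The other F1 M-coded livers lay on the male side in 115 and 113, and the F1 F-coded livers on the female side in 114, 116 and 111. It was analysed under its label. The counts of calls by comparison and the values of the named transcripts it touches are also given without it.

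Between F1 and SM livers, with the F/M code as covariate, 355 of 34406 transcripts differed at a limma adjusted p under 0.05 (Benjamini-Hochberg over all transcripts), 1.03% of those tested. F1 was higher in 254 of them (0.738% of those tested) and lower in 101 (0.294%). The median size was 0.37 log2 units. At least 0.5 log2 units separated the strains in 102, 74 higher and 28 lower in F1, and at least 1 log2 unit in 18, 16 higher and 2 lower. Without the library labelled F1 male replicate 1146, 297 transcripts were called (0.863% of those tested), 211 higher (0.613%) and 86 lower (0.25%) in F1, and 254 transcripts were called in both fits, all in the same direction. At the same threshold MRL and SM differed in 3033 transcripts (8.82% of those tested), and F1 and MRL in 417 (1.21%), or 290 (0.843%) without replicate 1146. Values of F1 and SM did not overlap within either code, replicate 1146 disregarded, in 586 transcripts with F1 higher (1.7% of those tested) and 348 with F1 lower (1.01%), of which 217 and 92 were also called. These comparisons share animals with F1 minus SM. The 355 called rows are not 355 separate signals: after F/M code and batch were removed, their values in the 282 F2 animals joined them into 240 profiles at a correlation over 0.9, with up to 11 rows in a profile.

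Of the called transcripts without overlap, ENSMUST00000044547_at rose the most. It stood at 8.52, 8.23 and 8.16 in F1 F-coded livers and at 8.37, 8.28 and 8.35 in F1 M-coded livers, against 6.68, 6.39 and 6.57 in SM F-coded and 6.90, 6.71 and 6.62 in SM M-coded livers. All 6 hybrids lay above all 6 SM animals, and the hybrids differed among themselves by less than 0.5 log2 units. The F1 minus SM difference was 1.67 ± 0.07 log2 units (SE, 6 animals per strain), a 3.19-fold rise, with a limma adjusted p of 5.55e-08. MRL livers averaged 9.22 ± 0.19 (F) and 9.17 ± 0.10 (M; SD, n = 3 each), so that the hybrid had left the SM level without reaching that of MRL.

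ENSMUST00000100285_at was less even among animals. It was 11.09, 10.14 and 11.20 in F1 F-coded and 10.50, 10.00 and 10.22 in F1 M-coded livers, against 9.55, 10.05 and 8.11 in SM F-coded and 8.18, 8.83 and 8.55 in SM M-coded livers. The strains did not overlap within either code, though the lowest F1 F-coded liver was less than 0.1 log2 units above the highest SM one. The difference was 1.65 ± 0.27 log2 units (SE, 6 animals per strain; limma adjusted p = 0.00969), and 1.58 ± 0.29 (0.0213) without replicate 1146. With the robust variance option the adjusted p was 0.0528. MRL averaged 11.21 ± 0.18 (F) and 11.01 ± 0.16 (M; SD, n = 3 each).

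In the other direction ENSMUST00000082367_at fell the most among called transcripts without overlap. It was 9.26, 9.12 and 8.76 in F1 F-coded livers, against 10.11, 10.33 and 10.00 in SM F-coded livers. In M-coded livers it was 7.61 and 7.22 in F1 replicates 1151 and 1152 and 8.28 in replicate 1146, against 9.00, 8.99 and 9.05 in SM. Hybrids were below SM in both codes, and the 3 SM M-coded values lay within 0.1 log2 units of each other. The F1 minus SM difference was -1.21 ± 0.14 log2 units (SE; limma adjusted p = 0.00127), 2.31-fold lower in F1, and it was -1.32 ± 0.11 without replicate 1146. MRL stood at 8.71 ± 0.31 (F) and 7.68 ± 0.19 (M; SD, n = 3 each), close to the hybrid.

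ENSMUST00000079034_at fell as well, with wide scatter in SM. Its values were 6.72, 6.21 and 6.00 in F1 F-coded and 6.08, 6.21 and 6.23 in F1 M-coded livers, against 6.98, 7.45 and 6.74 in SM F-coded and 6.83, 7.98 and 8.02 in SM M-coded livers. SM M-coded replicate 6 lay over 1 log2 unit below the other 2 SM M-coded animals, and the strains still did not overlap. The difference was -1.09 ± 0.21 log2 units (SE; limma adjusted p = 0.0236), and -1.03 ± 0.22 (0.0478) without replicate 1146. It no longer passed without F1 F-coded replicate 1149 or 1150, F1 M-coded replicate 1151 or SM F-coded replicate 2 (adjusted p = 0.0513, 0.07, 0.0621 and 0.054), nor with the robust variance option (0.0883).

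**Figure D1:**
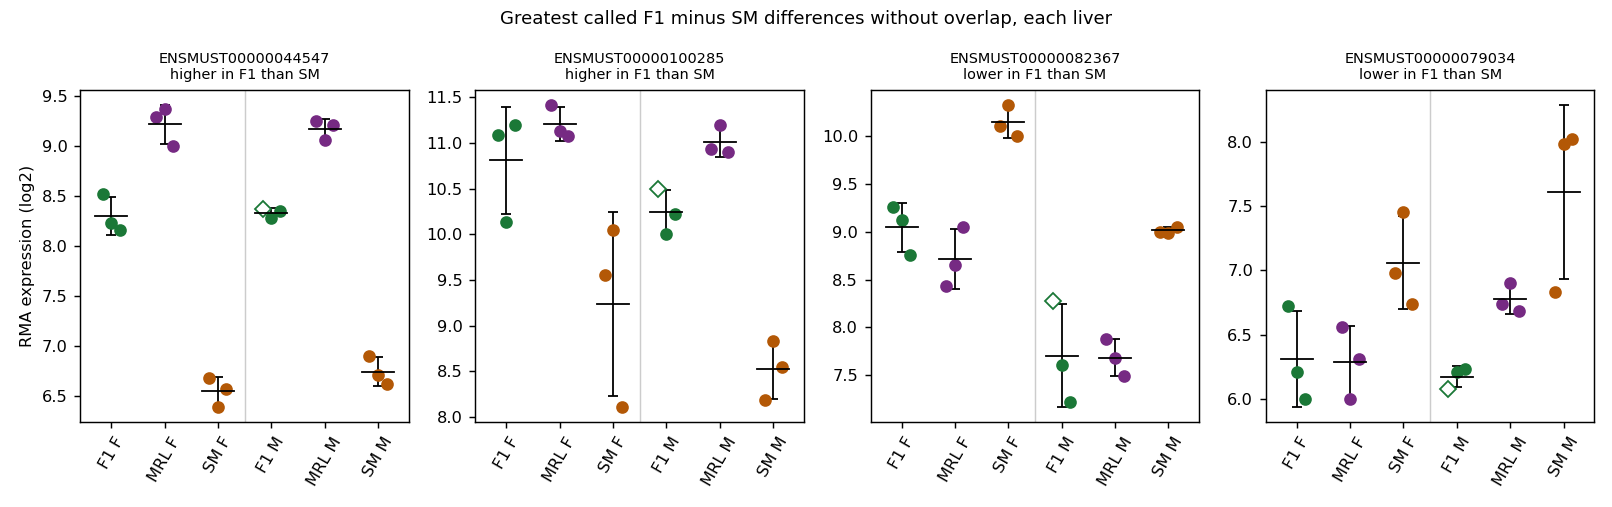
RMA expression (log2) of the 2 higher and 2 lower called transcripts with the greatest F1 minus SM differences among those without overlap in each liver, by strain and F/M code, with mean and SD (n = 3 per group). The open diamond is F1 male replicate 1146. In ENSMUST00000044547_at the hybrids sit between 8.16 and 8.52, above SM (6.39 to 6.90) and below MRL (9.00 to 9.37).

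Within the 2 batches that hold both strains, the F1 minus SM differences were averaged over the batches, which balances the codes. This within-batch value had the pooled sign in 355 of the 355 called transcripts, with a median of 0.37 log2 units in the pooled direction. The 4 arrays behind it are among the 12 of the fit, so that it is not a separate set of animals. For ENSMUST00000044547_at it was 1.58, for ENSMUST00000100285_at 2.13, for ENSMUST00000082367_at -1.32 and for ENSMUST00000079034_at -1.26 log2 units. When batch entered as fixed terms, 1 residual degree of freedom was left, and 363 transcripts were called, 93 of them among the 355, and 58.7% were higher in F1 in place of 71.5%.

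The number of calls rested on single animals. It fell to 180 without SM M-coded replicate 6, 181 without F1 F-coded replicate 1150, 219 without F1 F-coded replicate 1149, 221 without F1 M-coded replicate 1151 and 225 without SM F-coded replicate 1. It was 502 without F1 M-coded replicate 1152. The remaining single animals left out gave 238 to 297.

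**Figure D2:**
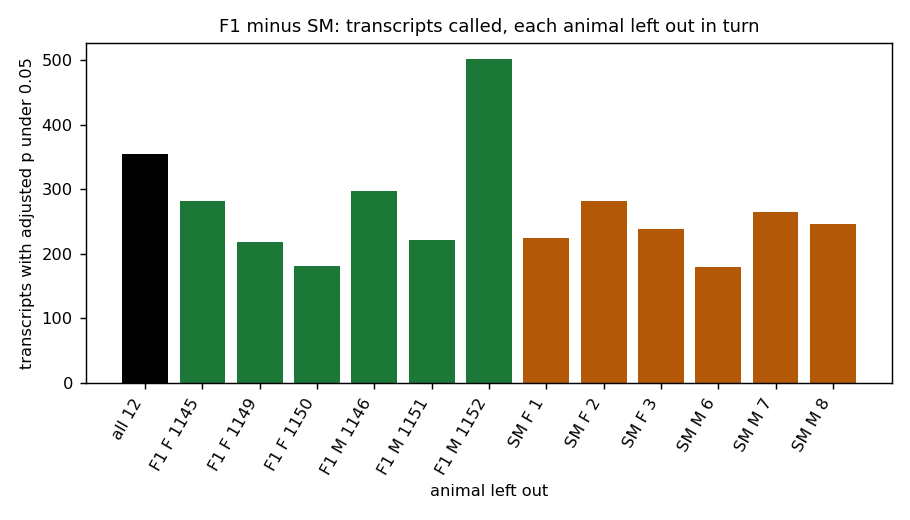
Number of transcripts with a limma adjusted p under 0.05 for F1 minus SM with all 12 animals (355) and with each animal left out in turn. Bars run from 180 without SM M-coded replicate 6 to 502 without F1 M-coded replicate 1152.

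To say which SM levels the hybrid keeps, transcripts were taken in which the parents themselves differ: 123 of 34406 (0.357%) had an MRL minus SM difference with a limma adjusted p under 0.05 and at least 1 log2 unit, without use of F1 arrays. In 57 the level was higher in MRL and in 66 higher in SM. In F2 these rows made 40 and 43 profiles at a correlation over 0.9, so that not all rows are separate signals. The F1 mean was placed on a scale with the SM mean at 0 and the MRL mean at 1, with both codes weighted equally. A position under 0.25 is called near SM, and one over 0.75 near MRL. These positions are a description with no test, because F1 minus SM and MRL minus SM share the SM animals.

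Of the 123, the hybrid lay near SM in 17, in the middle in 88 and near MRL in 18, and without replicate 1146 these counts were 14, 92 and 17. The classes differed with the direction of the parental difference. Where SM was the higher parent, F1 lay near SM in 15 of 66 and near MRL in 2, with a median position of 0.36 (quartiles 0.29 and 0.47). Where MRL was the higher parent, F1 lay near SM in 2 of 57 and near MRL in 16, with a median position of 0.66 (quartiles 0.52 and 0.76). On the log2 scale the hybrid was thus nearer the higher parent in both sets, in 54 of 66 and 43 of 57 transcripts. Without replicate 1146 this held in 47 of 66 and 47 of 57, with medians of 0.35 and 0.66.

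This lean depended on the scale. A level midway between the parents in unlogged values lies above the midpoint of the log2 values. With positions taken on unlogged values the medians were 0.49 where SM was higher and 0.55 where MRL was higher, and F1 was at or below the midpoint in 34 of 66 and above it in 35 of 57. On that scale F1 still lay near SM in 7 transcripts that were higher in SM and near MRL in 10 that were higher in MRL.

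**Figure D3:**
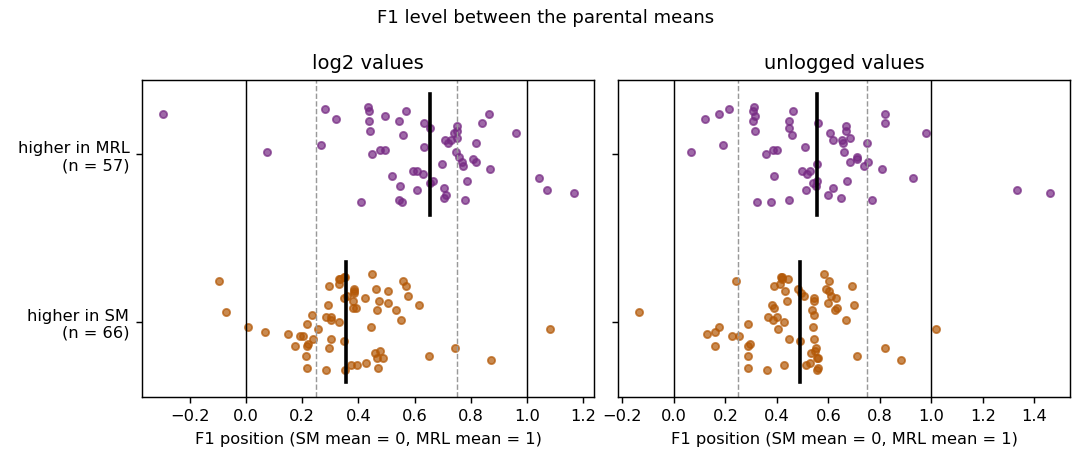
Position of the F1 mean between SM (0) and MRL (1) for 57 transcripts higher in MRL and 66 higher in SM, on log2 values (left) and unlogged values (right). Each point is a transcript, thick bars are medians (0.66 and 0.36 on log2, 0.55 and 0.49 unlogged), and dashed lines mark 0.25 and 0.75.

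Positions were also taken for each hybrid alone. For the transcripts higher in MRL, the median position of each animal, taken in its own code, was 0.68, 0.57 and 0.77 in F1 F-coded replicates 1145, 1149 and 1150 and 0.70, 0.62 and 0.64 in F1 M-coded replicates 1146, 1151 and 1152. For those higher in SM it was 0.24, 0.31 and 0.28 in the F-coded and 0.47, 0.36 and 0.59 in the M-coded hybrids. Every hybrid was over 0.5 in the first set, and M-coded replicate 1152 was the only one over 0.5 in the second. In the second set all 3 F-coded hybrids lay below all 3 M-coded ones, a separation that was not tested. Replicate 1146, with its female-type profile, was placed on M-coded parental means. Apart from it the separation rests on M-coded replicates 1151 and 1152. The means over animals were 0.66 ± 0.07 and 0.38 ± 0.13 (SD, n = 6).

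Transcripts were also chosen by the parental difference in 1 code, and F1 minus SM was read in the other code. The parental animals of the code read entered this choice only through the estimate of spread that the codes share. Among transcripts chosen by MRL minus SM in F-coded parents, the F1 minus SM difference in M-coded livers had the sign of the parental difference in 68 of 75 that were higher in MRL and 80 of 89 that were higher in SM. Its medians were 0.66 and -0.48 log2 units, beside MRL minus SM medians of 0.93 and -0.95 in the same code. Among those chosen in M-coded parents, F-coded hybrids moved toward MRL in 70 of 77 and 58 of 68, with medians of 0.55 and -0.29 beside parental medians of 0.98 and -1.20. The F1 minus SM difference was called in 13 of those chosen in F-coded parents (read in M-coded livers, where 0.0785% of all transcripts were called) and in 23 of those chosen in M-coded parents (read in F-coded livers, 0.27%), all with the sign of the parental difference. Positions were read only where the parents were at least 0.5 log2 units apart the same way in the code read. That condition used the parental animals of the code read, so that these positions are not free of them. Median positions for the sets higher in MRL and in SM were 0.56 and 0.46 in M-coded and 0.70 and 0.27 in F-coded livers.

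Among transcripts higher in SM, rows near SM in the hybrid had a higher median SM level than rows in the middle. The SM level had a median of 10.89 log2 units in the 15 near SM, against 9.10 in the 49 in the middle, and it ran from 7.19 to 12.50 in the 15. The part of signal level in the class was not tested. The 15 rows made 6 profiles in F2, the largest with 6 rows, so that they count as few separate signals. That largest profile, at SM levels of 10.40 to 11.14, weighs on the median. Other profiles stood at 12.50 and at 10.82 to 11.92, but also at 8.98 and 9.08, at 8.92, and at 7.19 and 8.08. The rank correlation of position with SM level was -0.25 over the 66 transcripts higher in SM. F1 minus SM was called in 0 of the 15 and F1 minus MRL in 11, beside 1.03% and 1.21% of all transcripts. Both counts follow in part from the choice of the 15 by their F1 level. The 95% interval of F1 minus SM, from a limma fit of the 18 parental and F1 arrays, stayed within 0.5 times the parental difference in 8 of the 15. In the other 7 these arrays do not tell the SM level from the parental midpoint.

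ENSMUST00000078869_at was among the 8 with the narrower interval, which ran from -0.81 to 0.35 log2 units in the fit of 18 arrays. It was 12.62, 12.30 and 12.24 in F1 F-coded and 12.24, 12.19 and 12.04 in F1 M-coded livers, against 12.49, 12.52 and 12.57 in SM F-coded and 12.33, 12.52 and 12.58 in SM M-coded livers. MRL livers were far lower, at 8.17, 7.74 and 8.73 in F-coded and 9.80, 9.96 and 10.14 in M-coded animals. Of the hybrids, 5 lay below all 6 SM livers and 1 F-coded hybrid above them, so that the M-coded livers of F1 and SM did not overlap. No hybrid came within 1 log2 unit of any MRL liver. In the fit of 12 arrays the hybrid differed from SM by -0.23 log2 units, with a 95% interval (not adjusted) of -0.38 to -0.08. This difference did not pass after adjustment over all transcripts (limma adjusted p = 0.185). F1 minus MRL was 3.18 ± 0.29 log2 units (SE; limma adjusted p = 7.49e-05). The position was 0.07 with and without replicate 1146.

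ENSMUST00000108522_at was high in F-coded livers of F1 and SM. It was 7.81, 9.50 and 8.37 in F1 F-coded livers, against 7.76, 9.47 and 9.29 in SM F-coded and 6.04, 6.14 and 6.08 in MRL F-coded livers. In M-coded livers it was 6.22 in F1 replicate 1146 and 5.49 and 5.69 in the other F1 animals, 5.41, 5.53 and 5.69 in SM, and 5.76, 5.36 and 5.36 in MRL. F-coded hybrids covered the same range as F-coded SM livers, both spread over more than 1 log2 unit. The F1 minus SM difference was -0.01 log2 units with a 95% interval of -0.66 to 0.64 (limma adjusted p = 0.994), and -0.13 without replicate 1146 (0.937), where the position was 0.08 in place of 0.01. The 95% interval of this transcript was one of the wider ones, and the MRL minus SM difference itself passed narrowly (adjusted p = 0.0476).

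Of the transcripts higher in MRL, 2 lay near the low SM level, and 1 without replicate 1146. ENSMUST00000022826_at was 6.70, 6.98 and 6.76 in F1 F-coded livers, against 7.40, 7.74 and 7.38 in MRL and 6.78, 6.52 and 6.68 in SM F-coded livers. In M-coded livers it was 7.86 and 7.61 in F1 replicates 1151 and 1152 and 6.66 in replicate 1146, against 8.68, 8.83 and 8.58 in MRL and 7.47, 7.24 and 7.40 in SM. The position was 0.07, and 0.24 without replicate 1146. In ENSMUST00000022826_at it thus stayed under 0.25, while ENSMUST00000094887_at had a position of -0.30 with that library and of 0.43 without it.

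**Figure D4:**
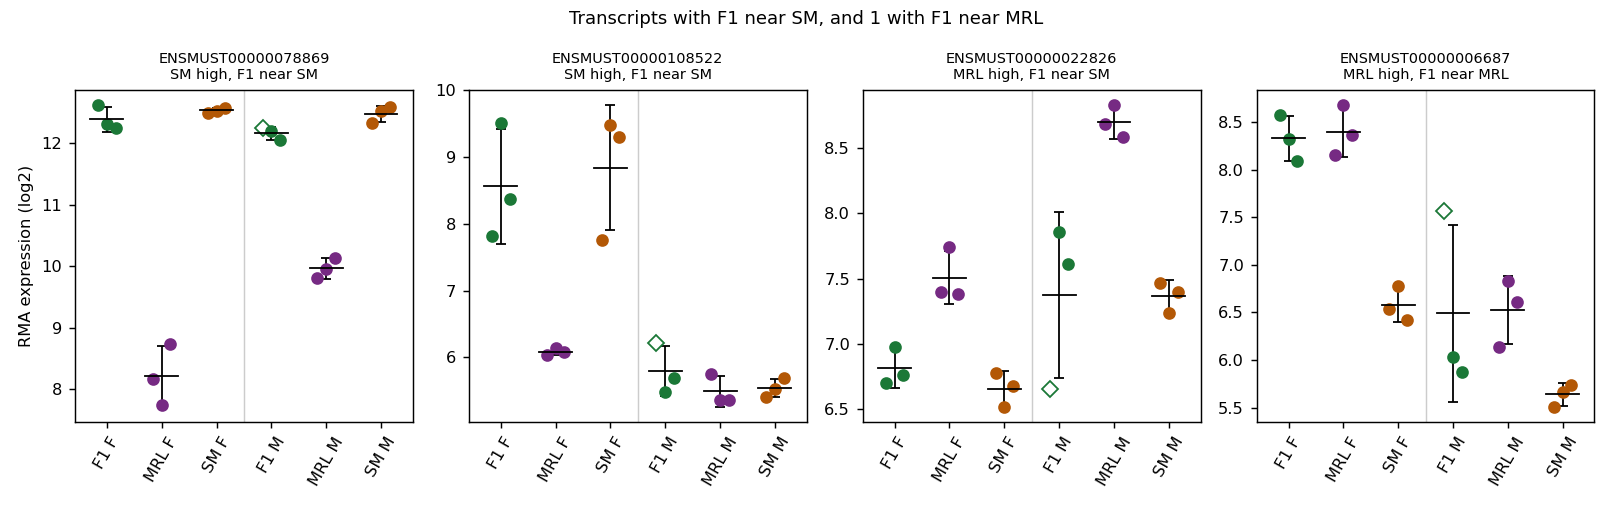
RMA expression (log2) in each liver of 3 transcripts with F1 near SM and 1 with F1 near MRL, by strain and F/M code, with mean and SD (n = 3 per group). The open diamond is F1 male replicate 1146. In ENSMUST00000078869_at the hybrids (12.04 to 12.62) sit close to SM (12.33 to 12.58), 5 of them just below it, while MRL livers reach 10.14 at most.

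The hybrid lay near MRL in 18 of the 123 transcripts, 16 of which were higher in MRL. The 16 rows made 11 profiles in F2. F1 minus SM was called in 12 of them and F1 minus MRL in 1, beside 1.03% and 1.21% of all transcripts. The 95% interval of F1 minus MRL stayed within 0.5 times the parental difference in 9. These counts follow in part from the choice of the class by its F1 level.

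With all arrays, the MRL-high transcripts with positions nearest to 1 were both higher in F-coded livers, and without replicate 1146 others were nearer. ENSMUST00000006687_at was 8.57, 8.32 and 8.09 in F1 F-coded livers, against 8.15, 8.68 and 8.36 in MRL and 6.54, 6.78 and 6.42 in SM F-coded livers. F-coded hybrids thus lay within the MRL range or less than 0.1 log2 units below it, and over 1 log2 unit above SM. In M-coded livers it was 7.56 in F1 replicate 1146 and 6.03 and 5.88 in the other F1 animals, against 6.14, 6.83 and 6.61 in MRL and 5.51, 5.67 and 5.74 in SM. Replicates 1151 and 1152 lay between the ranges of MRL and SM. F1 minus SM was 1.30 ± 0.25 log2 units (SE; limma adjusted p = 0.0214), and 1.11 ± 0.21 without replicate 1146 (0.0259), where the position was 0.76 in place of 0.96. Without that library F1 minus SM was 1.75 log2 units in F-coded livers (limma adjusted p = 1.43e-05) but 0.32 in M-coded livers (0.849). The M-coded minus F-coded difference passed without that library (-1.43 log2 units, limma adjusted p = 0.0131) and not with it (0.813).

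ENSMUST00000034992_at was at 9.17, 8.93 and 8.90 in F1 F-coded livers, against 9.24, 9.29 and 9.32 in MRL and 7.42, 7.51 and 7.11 in SM F-coded livers. M-coded F1 replicates 1151 and 1152 were at 6.98 and 6.93 and replicate 1146 at 8.63, against 7.17, 7.12 and 7.07 in MRL and 6.61, 6.56 and 6.39 in SM. Every F-coded hybrid lay below every F-coded MRL liver, and replicates 1151 and 1152 lay below every M-coded MRL liver. Only replicate 1146 lay above the MRL livers of its code. The hybrid exceeded SM by 1.32 ± 0.24 log2 units (SE; limma adjusted p = 0.0157), and the position was 1.04, or 0.82 without replicate 1146. Without that library F1 minus SM was 1.65 log2 units in F-coded livers (limma adjusted p = 8.86e-06) but 0.43 in M-coded livers (0.372). The M-coded minus F-coded difference passed without that library (-1.22 log2 units, limma adjusted p = 0.0158) and not with it (0.824).

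Of the transcripts higher in SM, 2 lay near MRL in the hybrid, and F1 minus SM was called in 1 of them. ENSMUST00000082367_at, described above, had a position of 0.87 and of 0.98 without replicate 1146. ENSMUST00000023934_at was 5.38, 4.95 and 5.37 in F1 F-coded and 5.91, 4.85 and 5.00 in F1 M-coded livers, against 6.06, 5.69 and 5.94 in SM F-coded and 5.47, 7.38 and 7.45 in SM M-coded livers. It was high in 2 SM M-coded livers, while SM M-coded replicate 6 and 1 SM F-coded liver stood within the F1 range. That range reached 5.91 through replicate 1146, and without it F1 ended at 5.38, below all 6 SM livers. The F1 minus SM difference of -1.09 ± 0.31 log2 units (SE) did not pass (limma adjusted p = 0.135), nor did -1.19 ± 0.32 without replicate 1146 (0.134), where the position was 1.24 in place of 1.08. MRL livers stood at 5.06 to 5.45, and the MRL minus SM difference had a limma adjusted p of 0.0376. F1 and MRL thus both lay near the lowest value of the F1 and SM arrays, 4.77, so that the position compares low signals.

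Levels outside both parents were rare: 3 transcripts (0.00872% of those tested) were called against SM and against MRL in the same direction, 1 above and 2 below. The count was also 3 without replicate 1146. ENSMUST00000047399_at was 7.28, 7.15 and 7.46 in F1 F-coded and 7.27, 7.58 and 7.30 in F1 M-coded livers, against 6.75, 6.44 and 6.29 in SM F-coded and 6.87, 6.95 and 7.00 in SM M-coded livers. Every hybrid was above every SM animal and above the highest MRL animal (7.11). The difference from SM was 0.63 ± 0.09 log2 units (SE; limma adjusted p = 0.00594), and F1 minus MRL 0.46 ± 0.07 (0.00618). Without replicate 1146 these were 0.67 (0.00503) and 0.50 (0.00512).

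ENSMUST00000099390_at and ENSMUST00000099391_at lay below both parents, at 7.54 to 7.85 and 7.96 to 8.49 in F1. SM livers stood at 7.94 to 8.28 and 8.44 to 8.74, and MRL livers at 8.10 to 8.41 and 8.58 to 8.70. The transcripts were 0.41 ± 0.07 and 0.41 ± 0.08 log2 units (SE) lower in F1 than in SM, and limma gave adjusted p-values of 0.00914 and 0.024. F1 minus MRL was -0.55 and -0.48 log2 units (limma adjusted p = 0.000833 and 0.0041). In F2 each transcript correlated over 0.9 with 2 other rows, so that they may not be separate signals. Without replicate 1146 the F1 minus SM differences were -0.39 (0.0204) and -0.42 (0.0368). In ENSMUST00000099391_at F1 F-coded replicate 1150, at 8.49, lay inside the SM range. That transcript lost its call with arrays centred on their medians (adjusted p = 0.0574), with batch as a fixed term and without any 1 of 7 single animals (0.0502 to 0.0648). ENSMUST00000099390_at lost its own in that batch fit (adjusted p = 0.304).

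Within the codes, 93 transcripts differed in F-coded livers (0.27% of those tested), 69 higher and 24 lower in F1, and 27 in M-coded livers (0.0785%), 14 higher and 13 lower. Without replicate 1146 the counts were 200 (0.581%; 150 higher, 50 lower) and 29 (0.0843%; 19 higher, 10 lower). The F-coded count changed although no F-coded animal was removed, through the estimate of spread that the codes share. It was 45, 39 and 57 without F1 F-coded replicates 1149, 1150 and 1145, 30 without SM F-coded replicate 3, and 54 without SM M-coded replicate 8. The M-coded count was 7, 11, 12 and 14 without SM M-coded replicates 8 and 7, F1 F-coded replicate 1149 and SM F-coded replicate 1, and 15 without F1 F-coded replicate 1150. With arrays centred on their medians, 93.4% of the F-coded calls were higher in F1 in place of 74.2%, and after quantile normalization 62.1%. With the same mean and SD for every array it was 70.7%.

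Whether the F1 minus SM difference itself depended on the code was tested as an interaction, the M-coded minus the F-coded difference. With all 12 arrays 1 transcript passed (0.00291% of those tested; 1963 had an unadjusted p under 0.05). This was ENSMUST00000095784_at, which SM carried at a high level in M-coded livers. It was 6.42 and 6.40 in F1 M-coded replicates 1151 and 1152 and 6.09 in replicate 1146, against 8.66, 8.12 and 8.63 in SM M-coded livers. In F-coded livers it was 6.10, 6.05 and 6.06 in F1, against 6.10, 6.24 and 6.08 in SM. All M-coded hybrids lay over 1.5 log2 units below all M-coded SM livers, and the F-coded livers overlapped. The difference of differences was -2.09 ± 0.18 log2 units (SE; limma adjusted p = 0.000831), and -1.98 ± 0.17 without replicate 1146 (0.000825). MRL M-coded livers averaged 6.70 ± 0.33 (SD, n = 3), and each F1 M-coded liver lay below at least 2 of the 3 MRL ones. With batch effects estimated in F2 subtracted the value was -1.83 and did not pass (adjusted p = 0.097).

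Without replicate 1146, 11 transcripts passed the interaction test (0.032% of those tested), 10 with a lower and 1 with a higher difference in M-coded livers. In 9 of the 11 F1 was called higher than SM in F-coded livers, in 1 F1 was called lower in M-coded livers and in 1 called higher there. Over all transcripts 0.581% were called in F-coded and 0.0843% in M-coded livers without that library. The distance between the codes was wider in F1 than in SM for 8 of the 11. These counts follow in part from the choice of the 11, since the interaction is the difference between the F1 minus SM values of the codes. ENSMUST00000075858_at was 9.09, 9.17 and 9.00 in F1 F-coded livers, against 7.84, 6.95 and 7.34 in SM F-coded livers. In M-coded livers it was 6.92 and 6.68 in F1 replicates 1151 and 1152 and 7.90 in replicate 1146, against 7.48, 7.29 and 7.69 in SM. SM livers of both codes overlapped, while F-coded and M-coded hybrids were over 2 log2 units apart once replicate 1146 was set aside. The interaction was -2.40 ± 0.26 log2 units (SE; limma adjusted p = 0.00376) without that library and -2.03 ± 0.37 (0.352) with it.

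The 1 transcript with a higher difference in M-coded livers was ENSMUST00000094887_at. Replicate 1146 apart, its level was higher in M-coded than in F-coded livers of F1, SM and MRL. It was 10.49 and 10.31 in F1 M-coded replicates 1151 and 1152 but 5.64 in replicate 1146, against 9.41, 9.27 and 9.19 in SM M-coded livers. F-coded livers were at 5.43, 5.58 and 5.51 in F1, against 5.89, 5.60 and 5.52 in SM. The interaction was 1.27 ± 0.15 log2 units (SE; limma adjusted p = 0.0062) without replicate 1146 and -0.32 (0.963) with it, so that this 1 library turned the direction. MRL M-coded livers averaged 11.12 ± 0.04 (SD, n = 3), with F1 replicates 1151 and 1152 between MRL and SM.

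**Figure D5:**
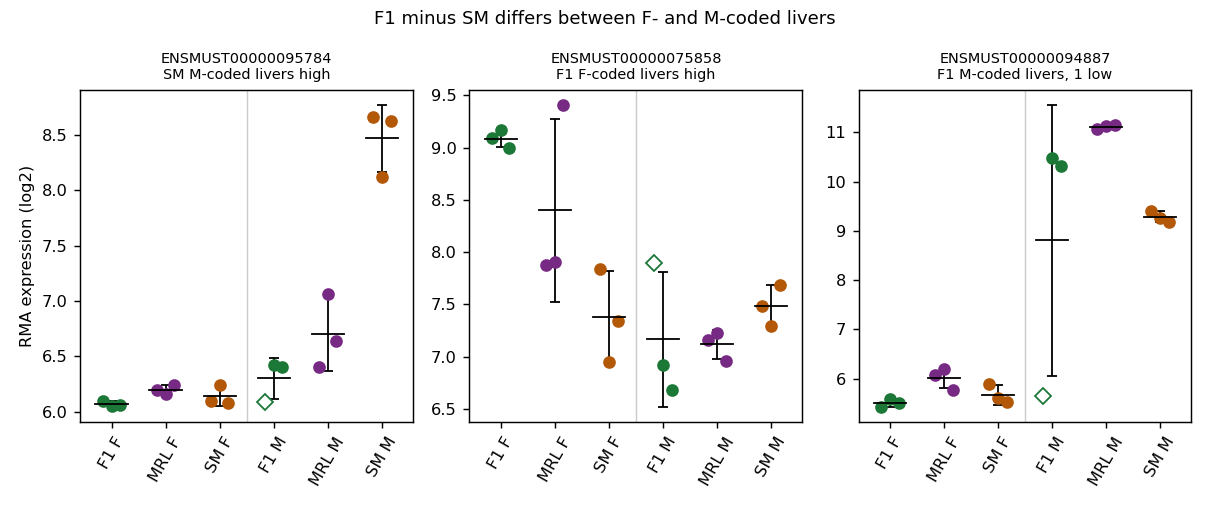
RMA expression (log2) in each liver of 3 transcripts that passed the interaction test of F1 minus SM with the F/M code, with mean and SD (n = 3 per group). ENSMUST00000095784_at passed with all 12 arrays, and ENSMUST00000075858_at and ENSMUST00000094887_at only without replicate 1146. The open diamond is F1 male replicate 1146, which stands at 5.64 in ENSMUST00000094887_at among the F-coded livers, while the other F1 M-coded livers are at 10.49 and 10.31.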

How the data were processed

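Values are log2 RMA expression, 1 row for each Ensembl transcript, as the authors deposited them. The submitters' processing notes name RMA, affy and R 2.11. RMA corrects background, quantile-normalizes over arrays and combines probes by median polish. For the Ensembl release and the build the entry is: not given in the sources used here. Identifiers were looked up in a RefSeq gene table, which named 0 of 34406, so the gene lists and cell type markers were not applied and no sequence is printed. All 34406 rows were used. The number of arrays limits the precision. Each array is 1 animal per the labels. Litters are not given, so that p-values measure the spread between these animals.

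Differences were fitted with limma 3.58.1 in R 4.3.3 (lmFit, eBayes): F1 minus SM in 12 arrays with the F/M code as an additive term (9 residual degrees of freedom), each code and the interaction from 4 group means, and MRL minus SM and F1 minus MRL in 12 arrays each. p-values were adjusted by Benjamini-Hochberg with a threshold of 0.05. The code was tested on simulated data. The highest correlation between 2 of the 18 arrays was 0.995 and no array matched another. Named transcripts are those with the greatest differences among called ones without overlap within either code (replicate 1146 disregarded for the overlap), those nearest to a position of 0 or 1, those outside both parents, and the greatest interactions, at most 2 per direction. The comparison, lists and rules were chosen with earlier results of these data known. Alternatives covered scaling, filtering, variance options, batch and single animals. Figures were drawn with matplotlib 3.10.9.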

Additional observations from a re-analysis of the deposited data

Results flagged for a closer look

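Among 36 groups of 6 animals checked for a single distant animal, 2 had one, where chance gives about 1 in 20, so that 2 of 36 is near that rate. Each group joined F- and M-coded livers, so that the check could miss an animal distant only within its code. ENSMUST00000094887_at was not flagged, with replicate 1146 at 5.64 and the other F1 M-coded livers at 10.49 and 10.31. ENSMUST00000079034_at stood at 6.72 in F1 F-coded replicate 1145, against 6.00 to 6.23 in the other hybrids. ENSMUST00000078869_at stood at 12.33 in SM M-coded replicate 6, against 12.49 to 12.58 in the other SM livers.

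The F1 minus SM difference changed with the F/M code, by the limma interaction test, in these transcripts. The M-coded minus F-coded difference of ENSMUST00000095784_at was -2.09 log2 units with all 12 arrays. Without F1 male replicate 1146 it was -1.98. Without that library it was -2.40 log2 units in ENSMUST00000075858_at and 1.27 in ENSMUST00000094887_at. With all 12 arrays neither of these passed (limma adjusted p = 0.352 and 0.963).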

How the results depend on the processing

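No scaling, filter, variance option or batch treatment moved the F1 minus SM count of 355 by over 1.5 times (282 to 440). The make-up of the calls moved more. The share higher in F1, 71.5%, was 64.3% after quantile normalization and 63.3% with the same mean and SD for every array. With batch as a fixed term it was 58.7%, and 93 of those 363 calls were among the 355. The other settings gave 70.5% to 74.1%. Leaving out single animals gave 180 to 502 for F1 minus SM, 30 to 200 for F-coded and 7 to 40 for M-coded livers, 1 to 11 for the interaction and 2436 to 3556 for MRL minus SM. It gave 8 to 20 SM-high transcripts near SM, 11 to 22 MRL-high ones near MRL, and median positions of 0.62 to 0.70 (MRL-high) and 0.33 to 0.39 (SM-high). The F-coded count of 93 was 61 with centred arrays, 205 with batch as a random block and 295 with all 18 arrays in the fit. The M-coded count of 27 was 12 above the median level, 15 with centred arrays, 52 with the same mean and SD for every array, 43 with the random block and 119 with all 18 arrays. The interaction count of 1 was 0 above the median level and with F2 batch effects subtracted, 4 after quantile normalization, 2 with the random block and 7 with all 18 arrays. With batch as a fixed term the MRL minus SM count was 1305 in place of 3033 and the MRL-high median position 0.74, and the fits by code could not be fitted, for lack of residual degrees of freedom. The correlation estimated for the random block was -0.16, so that block took up no shared batch shift. With the same mean and SD for every array 7 SM-high transcripts lay near SM in place of 15. The MRL-high median position of 0.66 was 0.57 for parental differences of at least 0.5 and 0.76 for at least 1.5 log2 units, 0.55 on unlogged values, and 0.56 when chosen in F-coded and read in M-coded livers. The SM-high median of 0.36 was 0.49 on unlogged values. The interaction of ENSMUST00000094887_at was -0.32 with all arrays, 1.27 (adjusted p = 0.0062) without F1 male replicate 1146 and, at the other end of the range over single animals left out, -1.16 without F1 male replicate 1151. The causes of these shifts were not tested.

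F1 titles share no animal number with SM titles, so that F1 minus SM has no paired fit. MRL and SM share their numbers, and with the number as a replicate block 2375 transcripts were called between them in place of 3033. Deviations of same-numbered animals correlated from -0.08 to 0.22, so the numbers were not taken to pair animals.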

Other observations

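The F2 animals, which did not enter the F1 comparison, gave further values for the named transcripts. ENSMUST00000095784_at, high in SM M-coded livers and low in the hybrid, averaged 6.98 ± 1.00 (SD, n = 147) in F2 M-coded livers and 6.17 ± 0.09 (SD, n = 135) in F2 F-coded livers, so that its spread in F2 was seen in M-coded animals. ENSMUST00000078869_at, close to the SM level in the hybrid, averaged 11.81 ± 0.95 in F2 M-coded and 11.72 ± 1.35 in F2 F-coded livers (SD). Its F2 mean had a position of 0.21 between SM and MRL, beside 0.07 in F1. Over the parental transcripts with at least 1 log2 unit, the median F2 position was 0.57 where MRL was higher and 0.44 where SM was higher, on the log2 scale. ENSMUST00000099390_at, below both parents in the hybrid, averaged 7.56 ± 0.67 in F2 M-coded and 7.68 ± 0.68 in F2 F-coded livers (SD), also under both parental means.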
